A study of Equus caballus with 8 samples.

Results

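The genes described here make adenosine from extracellular and cytosolic nucleotides, carry it across the membrane, break it down, or serve as its receptors. The set has 9 genes, chosen by name for these roles, and all 9 were found by Gene ID among the 24942 genes of the deposited count table. One of them, NT5C1A, was chosen because it fell in the comparison made here, so its change is given as a description with no test. The other members entered by function, although results of these data were already known when the set was drawn up.

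Messenger RNA was measured in endometrial biopsies of healthy Bavarian Warmblood mares. In random order, each of 4 mares was sampled once when 12 days pregnant and once on Day 12 of a cycle without pregnancy, so 4 pregnant and 4 cyclic libraries form 4 pairs. Per the labels, mares received 1500 IU of human chorionic gonadotropin to induce ovulation, and the biopsy followed a flush of the uterus. Pregnancy was recognised by an embryonic vesicle on ultrasound before the flush, and the semen came from 1 stallion. The labels give no age of the mares and no genotype.

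As background, cells release ATP, and ecto-enzymes on the cell surface cut it stepwise to AMP and then to adenosine. Adenosine acts on G protein-coupled receptors that raise or lower cyclic AMP, and it is removed by uptake through nucleoside transporters and by deamination to inosine. In the uterus, adenosine signalling is known for its actions on blood vessels, immune cells and the decidualising stroma of rodents.

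Library totals ran from 9.81 to 16.7 M (1 M is 1000000 counts), the shallowest being the pregnant library of mare 1 and the others holding at least 15.5 M. Values are counts per 1000000 (CPM) after TMM scaling, the trimmed mean method of edgeR, and groups are given as mean ± SD over 4 mares. The test was edgeR's quasi-likelihood F-test with the mare as a block, adjusted by the Benjamini-Hochberg method over 15342 genes, and "rose" or "fell" stands for an adjusted p below 0.05. Replicates are separate animals. Without transcript lengths, levels are compared between states and mares but not between genes. In a bulk biopsy, fewer cells of a type and less RNA per cell cannot be told apart.

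Among the members, the cell surface enzyme that makes adenosine (NT5E), the enzyme that deaminates it (ADA) and its equilibrative transporter (SLC29A1) rose in pregnancy, each higher in 4 of 4 mares. Of the 7 members tested besides NT5C1A, 4 moved the same way in every mare, beside 38.8% of all genes, and in 1 the groups did not overlap, beside 10.7%. The cytosolic nucleotidase NT5C1A was lower in pregnancy in every mare, by 4.23-fold in the fit. The ectonucleotidases ENTPD1 and ENTPD3 and the receptors ADORA2A and ADORA2B did not pass the threshold, and ADORA1 had too few counts to be tested. Of the same 7 members, 3 changed, all upward, against 16.7% of all genes in either direction and 8.53% upward. The median log2 fold change of these 7 was 0.38, beside 0.00422 over all genes tested. Without mare 1, the one with the shallowest library, 1 of the 7 was called, SLC29A1, beside 8.23% of all genes in that fit, and the median was 0.29. The count was also 1 without mare 4, of 8 tested with ADORA1 among them, beside 13.4% of all genes. Without the mare block it was 1 of 7, beside 2.54%, and without mare 2 it was 2 of 7, beside 12%. Without mare 3, 3 of 8 rose and 1, ENTPD3, fell, beside 12.1%. Under each of the other scalings, filters and tests 3 rose and 0 fell, beside 12.7% to 18.2% of all genes.

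**Figure D1:**
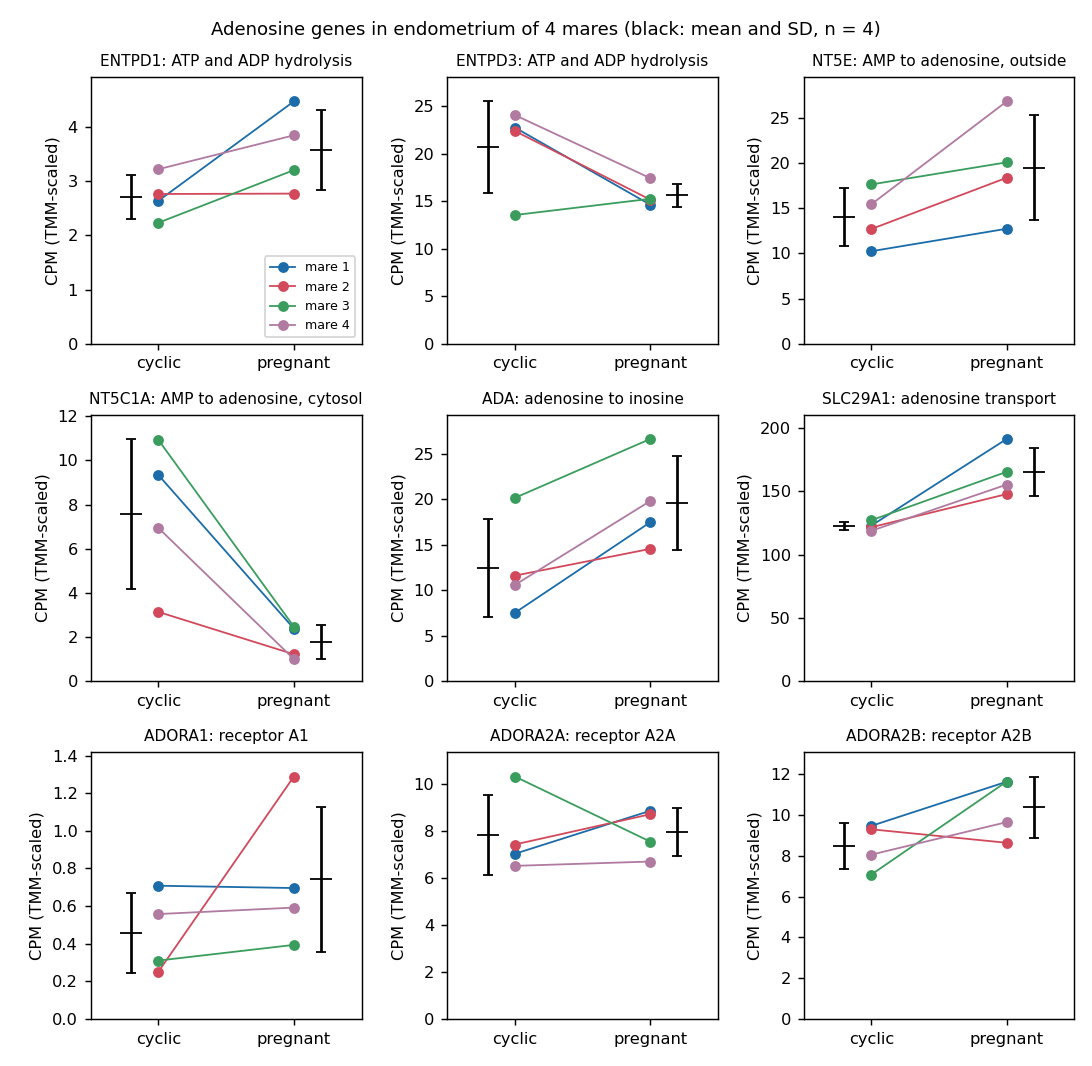
Level of each of the 9 genes in TMM-scaled CPM (vertical axes start at 0) in the cyclic and the pregnant biopsy of 4 mares, joined by mare, with group mean and SD in black. The lines of NT5C1A all go down to between 1.01 and 2.47 CPM, those of NT5E, ADA and SLC29A1 all go up, and those of ADORA2A and ADORA2B cross.

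NT5C1A (Gene ID 100054191) encodes a nucleotidase of the cytosol that prefers AMP as substrate, known in humans chiefly from heart and skeletal muscle. In the cycle it had 9.34, 3.14, 10.9 and 6.94 CPM in mares 1 to 4, and in pregnancy 2.39, 1.22, 2.47 and 1.01 CPM. The highest pregnant value lay below the lowest cyclic one, so the groups did not overlap, as for 4.73% of all genes downward. The means were 7.59 ± 3.39 CPM (SD, n = 4) and 1.77 ± 0.765 CPM (SD, n = 4). The log2 fold change in the fit was -2.08, and the log2 ratios within mares had an SD of 0.56 (n = 4). The drop was smallest in mare 2, which began lowest, with a log2 ratio of -1.27, and largest in mare 4, with -2.64. These values rest on 50 to 176 counts per cyclic library and 17 to 44 per pregnant library.

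The ectonucleotidases stand at the start of the extracellular route. ENTPD1 (100070956), also called CD39, hydrolyses ATP and ADP to AMP and is known from endothelium and immune cells. It had 2.64, 2.76, 2.23 and 3.22 CPM in the cycle and 4.47, 2.77, 3.21 and 3.85 CPM in pregnancy, on 36 to 65 counts per library. The groups overlapped, and mare 2 had almost the same value in both states. The log2 fold change was 0.38 with a 95% interval from -0.06 to 0.82 (edgeR adjusted p = 0.219), so a rise of that size was not told from none here.

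ENTPD3 (100068004), a second surface enzyme that cuts ATP and ADP, had 22.7, 22.4, 13.5 and 24.0 CPM in the cycle and 14.6, 15.1, 15.2 and 17.4 CPM in pregnancy. It was lower in pregnancy in mares 1, 2 and 4 and higher in mare 3, whose cyclic library stood apart as the lowest. Its log2 fold change was -0.37 ± 0.14 (SE; edgeR adjusted p = 0.0943). Without mare 3, a choice that leaves out the 1 mare with a rise, the value was -0.56 (edgeR adjusted p = 0.0128).

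The log2 ratio of ENTPD1 exceeded that of ENTPD3 in 4 of 4 mares, by 1.37, 0.56, 0.33 and 0.71. This pair was set side by side after its values were seen. The exact sign-flip test over 4 mares (two-sided) gave p = 0.125, which is the smallest value that 4 pairs allow, so the difference cannot pass 0.05 in this design.

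NT5E (100070458), also called CD73, turns extracellular AMP into adenosine and is the main surface enzyme of that step. It had 10.2, 12.7, 17.6 and 15.4 CPM in mares 1 to 4 in the cycle and 12.7, 18.4, 20.1 and 26.8 CPM in pregnancy. The groups overlapped, because mare 1 in pregnancy was below mare 3 and mare 4 in the cycle, yet each mare went up. NT5E rose 1.38-fold, with a log2 fold change of 0.46 ± 0.12 (SE; edgeR adjusted p = 0.0257). The call was lost without the mare block (edgeR adjusted p = 0.320) and without mare 1 (0.0633), mare 2 (0.0893) or mare 4 (0.107), with the direction kept.

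ADA (100070773), adenosine deaminase, converts adenosine to inosine and is abundant in the decidua of mice. It had 7.53, 11.6, 20.2 and 10.6 CPM in the cycle and 17.5, 14.6, 26.7 and 19.8 CPM in pregnancy. Again the groups overlapped, here because mare 3 was high in both states. ADA rose 1.62-fold, from 12.5 ± 5.41 to 19.6 ± 5.15 CPM (SD, n = 4), with a log2 fold change of 0.69 ± 0.15 (SE; edgeR adjusted p = 0.0146). The call was lost without the mare block (edgeR adjusted p = 0.286), without mare 1 (0.0546) and without mare 4 (0.0590).

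The gene for making adenosine outside the cell and the gene for removing it thus both rose. The log2 ratio of ADA minus that of NT5E was 0.89, -0.21, 0.21 and 0.10 in mares 1 to 4. The mean difference was 0.25 ± 0.46 (SD, n = 4; exact sign-flip test, two-sided, p = 0.375). With 4 mares this test cannot give a p below 0.125, so it does not show that the 2 genes rose alike. Counts of ADA per count of NT5E ran from 0.687 to 1.14 in the cycle and from 0.740 to 1.38 in pregnancy, with overlapping groups.

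SLC29A1 (100055498) encodes the equilibrative nucleoside transporter ENT1, which moves adenosine across the plasma membrane along its gradient. Its cyclic values lay close together at 123, 122, 127 and 119 CPM. In pregnancy it had 191, 148, 165 and 155 CPM, all above every cyclic value. SLC29A1 rose 1.34-fold, from 122.7 ± 3.47 to 165 ± 19.0 CPM (SD, n = 4), with a log2 fold change of 0.42 ± 0.08 (SE; edgeR adjusted p = 0.00590). Of all genes tested, 6% had pregnant values all above the cyclic ones. The call held under each of the 12 alternatives run (adjusted p up to 0.0478), and the gene had at least 1909 counts in each library.

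**Figure D2:**
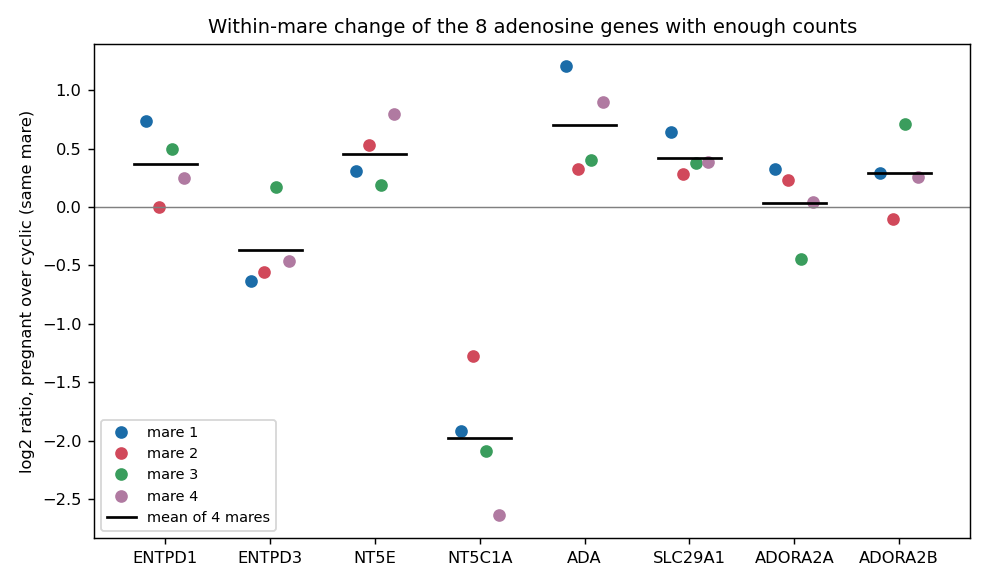
Log2 ratio of the pregnant over the cyclic biopsy of the same mare (vertical axis) for the 8 members tested, 1 point per mare and a black line at the mean. The 4 points of NT5C1A lie between -2.64 and -1.27, those of NT5E, ADA and SLC29A1 lie above 0, and those of ADORA2A lie on both sides of 0.

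Neither of the receptor genes with enough counts passed the test. ADORA2A (100034039), a receptor that raises cyclic AMP and is known for restraining immune cells and widening vessels, had 7.02, 7.41, 10.3 and 6.51 CPM in the cycle and 8.85, 8.70, 7.54 and 6.69 CPM in pregnancy. Mare 3 went down while the others went up. The log2 fold change was 0.03 with a 95% interval from -0.32 to 0.38 (edgeR adjusted p = 0.925), which leaves room for a moderate change either way.

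ADORA2B (100063319), the low-affinity receptor that also raises cyclic AMP, had 9.47, 9.30, 7.08 and 8.06 CPM in the cycle and 11.6, 8.64, 11.6 and 9.65 CPM in pregnancy. It was higher in 3 of 4 mares, lower in mare 2, and the groups overlapped. The log2 fold change was 0.29 with a 95% interval from -0.03 to 0.62 (edgeR adjusted p = 0.201). The log2 ratio of ADORA2B exceeded that of ADORA2A in 2 of 4 mares. In the RefSeq table used for names, the span of ADORA2B overlaps that of ZSWIM7. The kit's description has no step that marks strand, and how reads were counted is not given. Reads in a shared stretch may therefore not have been told apart. ZSWIM7 had 28.9 ± 2.22 CPM in cyclic and 27.8 ± 2.26 CPM in pregnant libraries (SD, n = 4; edgeR adjusted p = 0.714). The same limit holds for ENTPD1, ADORA1, ADORA2A and SLC29A1, whose spans also overlap other genes. ADORA1 overlaps MYBPH, with means of 0.048 CPM in cyclic and 0.125 CPM in pregnant libraries. ADORA2A overlaps the protein-coding LOC138925461, which is absent from the count table. The genes that overlap ENTPD1 and SLC29A1 are noncoding.

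ADORA1 (100052496), a receptor that lowers cyclic AMP, had only 4 to 20 counts per library. Its levels were 0.708, 0.251, 0.310 and 0.558 CPM in the cycle and 0.696, 1.29, 0.394 and 0.592 CPM in pregnancy, and the pregnant library of mare 2 was the highest. With no filter on low counts its log2 fold change was 0.67 (edgeR adjusted p = 0.447). ADORA3, the other adenosine receptor that lowers cyclic AMP, had no matching Gene ID and is not analysed here.

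Animals differed in some members whatever their state. In the same model, the 3 mare terms together passed for NT5E (edgeR adjusted p = 0.0297), NT5C1A (0.0325) and ADA (0.0358), that is 3 of 8 members beside 15.9% of all genes tested. Averaged over both states, mares spanned 1.35 log2 units in NT5C1A, 1.00 in ADA and 0.83 in NT5E. Mare 2 was lowest in NT5C1A, mare 1 lowest in NT5E and mare 3 highest in ADA, so the mares did not stand in the same order for each gene. For the other 5 members tested the adjusted p ran from 0.280 to 0.713, and the span in SLC29A1 was 0.19 log2 units.

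When the sum of squares of log2 CPM was divided, the mare took 61.2% in NT5E and 47.9% in ADA, beside a median of 54.8% over all genes tested. These shares are not divided by degrees of freedom, of which the mare has more than the state. Each share is therefore read beside its median over all genes, and mare and state are not ranked against each other. The state took 81.0% in SLC29A1, 41.2% in ADA, 30.9% in NT5E and 0.797% in ADORA2A, beside a median of 16.0%. For NT5C1A the state's share, which its choice fixed, was 72.6%. In ADORA2A and ADORA2B the remainder after mare and state held 49.6% and 40.4%, beside a median of 17.0%.

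**Figure D3:**
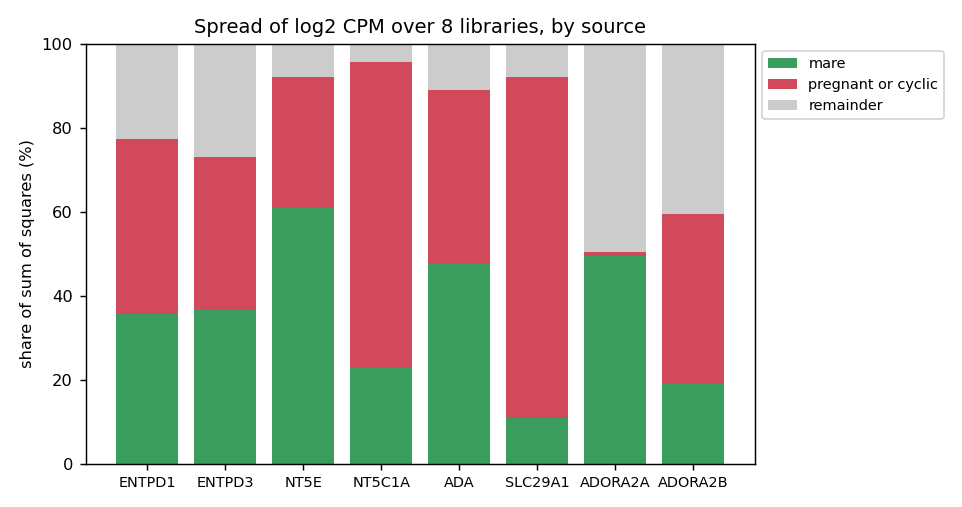
Division of the variation in log2 CPM over 8 libraries (vertical axis, percent of the sum of squares) among the mare, the state and the remainder, for each of the 8 members tested. The state took 81.0% in SLC29A1 and the mare 61.2% in NT5E, and ADORA2A had 49.6% in the remainder.

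Other genes of the purine pathway were taken from 8 functional lists with 62 genes, of which 57 matched a Gene ID and 50 were tested. Of these 50, 7 rose and 2 fell, beside 8.53% and 8.19% of all genes, with a median log2 fold change of 0.17. In all, 4 were called without mare 1, beside 8.23% of all genes in that fit, 4 without mare 3, beside 12.1%, and 2 without the mare block, beside 2.54%, all of them higher. Among the 9 called genes the largest changes were those of a gene for AMP removal and of a transporter gene. AMPD3, a deaminase that turns AMP into IMP and so diverts it from adenosine, rose 2.87-fold, and SLC29A4, a transporter of monoamines and adenosine, rose 3.01-fold.

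AMPD3 (100055812) had 6.12, 4.40, 5.90 and 4.77 CPM in the cycle and 18.0, 19.0, 12.6 and 12.1 CPM in pregnancy, with no overlap. Its log2 fold change was 1.52 ± 0.16 (SE; edgeR adjusted p = 6.91e-04), and the call held under each of the 12 alternatives. Of the 8 tested genes for removing adenosine or AMP it was the only one called, beside 16.7% of all genes. Adenosine kinase ADK, which returns adenosine to AMP, had 40.2 ± 7.70 and 33.6 ± 1.59 CPM (SD, n = 4; edgeR adjusted p = 0.168). DPP4, a surface peptidase that anchors ADA in humans, had 555 ± 72.0 and 489 ± 32.3 CPM (SD, n = 4; edgeR adjusted p = 0.281).

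SLC29A4 (100147021) had 12.0, 5.66, 9.44 and 8.55 CPM in the cycle and 57.8, 18.2, 19.3 and 21.8 CPM in pregnancy. The groups did not overlap, and mare 1 was highest in both. The log2 fold change was 1.59 ± 0.20 (SE; edgeR adjusted p = 0.00262), it was 1.35 without mare 1, and the call was lost without the mare block (edgeR adjusted p = 0.0691). SLC29A2 and SLC29A3, relatives that carry nucleosides across the plasma and the lysosomal membrane, had adjusted p of 0.187 and 0.647 in the same edgeR test.

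In the extracellular breakdown list, 1 of 7 genes rose, beside 8.53% of all genes. ENPP1, which cleaves ATP to AMP and pyrophosphate, had 116, 62.5, 76.6 and 74.7 CPM in the cycle and 160.3, 101.5, 102.6 and 103 CPM in pregnancy. It was higher in each mare, with mare 1 highest in both states, and its log2 fold change was 0.51 ± 0.07 (SE; edgeR adjusted p = 0.00182; 0.260 without the mare block). Among 5 tested intracellular nucleotidases besides NT5C1A, NT5C2, which prefers IMP and GMP, rose 1.22-fold (edgeR adjusted p = 0.0409). It was the only one of the 5 called, beside 16.7% of all genes. The call of NT5C2 was lost under 7 of 12 alternatives, with adjusted p up to 0.193. NT5C, a deoxyribonucleotidase, was higher in 4 of 4 mares with groups that did not overlap, at 6.63 ± 0.610 and 8.19 ± 0.965 CPM (SD, n = 4), and did not pass (edgeR adjusted p = 0.127). NT5C3A, which prefers pyrimidine nucleotides, was lower in 4 of 4 mares and did not pass either (edgeR adjusted p = 0.159).

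**Figure D4:**
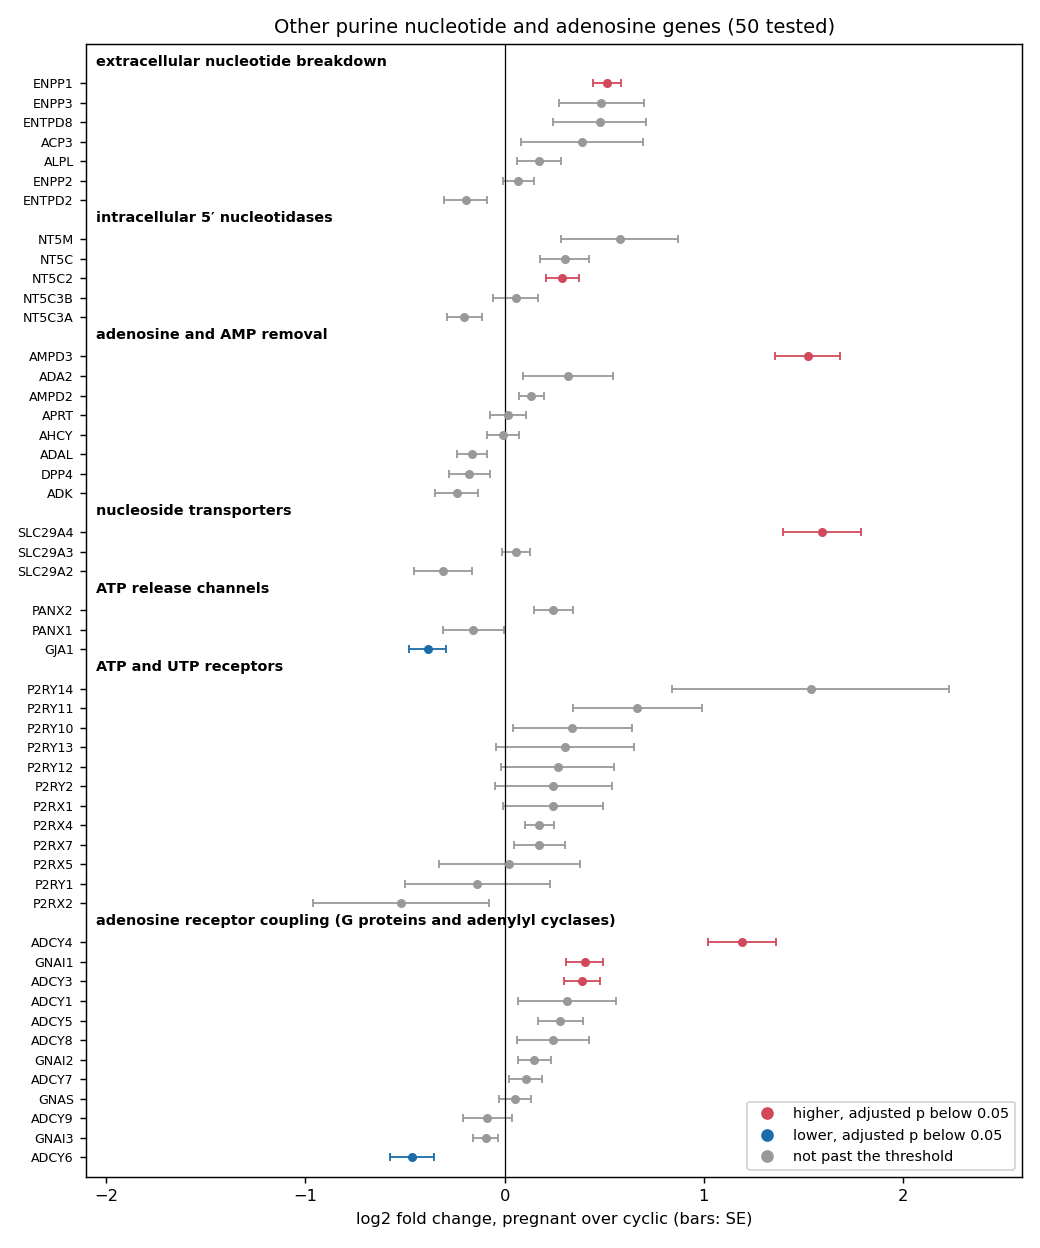
Log2 fold change, pregnant over cyclic (horizontal axis, bars are SE), of the 50 tested genes of 7 functional lists. The 7 genes in red rose and the 2 in blue fell, SLC29A4, AMPD3 and ADCY4 having log2 fold changes of 1.59, 1.52 and 1.19.

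Of 12 tested genes that couple adenosine receptors to cyclic AMP, 3 were higher and 1 lower, beside 8.53% and 8.19% of all genes. The adenylyl cyclase ADCY4 had 3.54, 3.52, 4.10 and 3.47 CPM in the cycle and 9.15, 10.6, 8.27 and 6.04 CPM in pregnancy, without overlap, and rose 2.28-fold (edgeR adjusted p = 0.00212). Another cyclase, ADCY3, rose 1.31-fold (adjusted p = 0.0180), and ADCY6 fell from 460 ± 56.9 to 333 ± 52.4 CPM (SD, n = 4; adjusted p = 0.0197). GNAI1, an inhibitory G protein subunit, rose 1.32-fold (edgeR adjusted p = 0.0179). The calls of GNAI1, ADCY3 and ADCY6 were each lost when the mare block, mare 1 or mare 3 was left out (edgeR adjusted p up to 0.171, 0.163 and 0.102). Leaving out mare 2 also ended the calls of GNAI1 (edgeR adjusted p = 0.0703) and ADCY6 (0.0548). Scaling by library totals alone ended that of ADCY6 too (0.0534).

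Of 3 channel genes linked to ATP release, GJA1, the gap junction protein connexin 43, fell from 248 ± 42.1 to 191 ± 41.6 CPM (SD, n = 4; edgeR adjusted p = 0.0202), lower in each mare and lost under 4 of 12 alternatives, with adjusted p up to 0.317. Of 12 tested ATP and UTP receptor genes, 0 passed in edgeR (1 at an unadjusted p below 0.05), beside 16.7% of all genes. In DESeq2 0 passed, beside 14.9%, and in limma-voom 1, beside 15.7%. P2RX4, an ATP-gated channel, had 40.6 ± 4.21 and 45.7 ± 2.22 CPM (SD, n = 4; edgeR adjusted p = 0.126).

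Epithelial and stromal markers were present in every library, and markers of several cell types moved beside the genes above. Of all genes tested, 8.53% rose and 8.19% fell. All 8 endothelial markers listed rose, and their summed level was 391 to 554 CPM in the cycle and 705 to 1206 CPM in pregnancy. The 6 smooth muscle markers summed to 145 to 308 and 295 to 516 CPM, with 3 of them called higher. The 4 epithelial markers matched summed to 1273 to 1626 and 1171 to 1281 CPM, and they did not move together. KRT7 and KRT18 fell, while EPCAM (log2 fold change -0.086, edgeR adjusted p = 0.545) and CDH1 (0.18, 0.199) did not pass. KRT8 and KRT19 had no matching Gene ID. The 6 T and NK cell markers summed to 37.1 to 56.0 and 50.1 to 76.9 CPM, with 3 higher. Of the 7 stromal markers 3 rose and of the 5 macrophage markers 1 rose. Their sums overlapped between the states, as did those of the smooth muscle, epithelial, and T and NK cell markers. Mast cell markers summed to 53.5 to 282 and 33.4 to 246 CPM, and B and plasma cell markers to 30.7 to 96.4 and 58.8 to 95.1 CPM. In these lists the B cell marker CD79A rose 2.90-fold (edgeR adjusted p = 0.00803) on 4 to 35 counts per library. JCHAIN did not pass (edgeR adjusted p = 0.587), and CD79B and MS4A1 had at most 4 counts per library. Of the erythrocyte markers, only GYPC was tested, and it rose 1.74-fold (edgeR adjusted p = 0.00494). HBB had at most 2 counts per library, ALAS2 had 0 counts in all libraries, and HBA1 had no matching Gene ID. The part of these markers in the values of NT5C1A, NT5E, ADA, SLC29A1, ENPP1, ADCY4 and the other genes above was not tested.

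Over the 8 libraries, the log2 CPM of NT5C1A was most like that of PDIK1L (Pearson r = 0.97), CCNT2 (0.96), KDM4C (0.95) and C7H19orf67 (0.95), out of 12725 named genes with a mean of at least 1 CPM. The most opposite were PALB2 (-0.96), RAMP1 (-0.95) and STX10 (-0.94). These are the extremes of many genes over 8 libraries that share mares and state, and they are given as a description. The likeness was of pattern and not of size, since the mean of PDIK1L was 20.6 CPM in cyclic and 17.1 CPM in pregnant libraries.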

How the data were processed

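The authors deposited raw read counts per NCBI Gene ID, with a column for each library. The submitters' processing notes name Trimmomatic 0.32.2 and HISAT2 2.0.3. How reads were counted, and with which annotation and build, is not given in the sources used here, so no coordinates are printed. A deposited table of scaled signal values for 14037 genes was checked against the counts: 100% of its values equal TMM-scaled CPM within a relative tolerance of 1e-06. It served 1 alternative. Sample columns left unused numbered 0.

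Symbols came from RefSeq's gene table of a thoroughbred assembly, which matched 21420 of 24942 IDs (85.9%). Per the labels' protocols, the kit selected poly(A) RNA, and its description has no step that marks strand. The fit used edgeR 4.0.16 in R 4.3.3. The filter filterByExpr (minimum count 10) left 15342 genes, which were scaled by TMM and fitted with the mare as a block (robust quasi-likelihood F-test, Benjamini-Hochberg adjustment, threshold 0.05). The SE is the log2 fold change divided by the square root of F. Ratios within a mare and shares of sums of squares use log2 CPM with a prior count of 2.

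The mare number pairs the libraries, since the series' design states that every mare gave both biopsies. Deviations from the group means correlated between the libraries of a mare (r across genes from 0.38 to 0.54). Within a group, all pairs of libraries differed by more than sampling noise (chi-square per degree of freedom at least 24.6). A count of 0 allows up to 3 counts, 0.169 to 0.298 TMM-scaled CPM, which covers counting error only. Alternatives were other scalings, filters and tests (DESeq2 1.42.0 and limma 3.58.1), no mare block and leaving out each mare.

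The members and lists were chosen with earlier results of these data known. Genes named are every member, every called gene of the pathway lists, the tested gene with the highest CPM of a list with none called (a rule for naming, not a comparison of levels), and the 5 genes most like and 3 most opposite to NT5C1A. One gene that this rule picks is not reported here. ADK, DPP4, SLC29A2, SLC29A3, NT5C, NT5C3A and P2RY14 were named after their values were seen.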

Additional observations from a re-analysis of the deposited data

Results flagged for a closer look

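Each group of 4 libraries was searched for a library standing apart, by Dixon's ratio of the gap to the range, over the members, the pathway genes named and the library totals. In 54 groups 8 values stood apart, where chance gives about 1 in 20 groups. Some of the genes searched, P2RY14 among them, were named after their values were seen. The groups also share the same 8 libraries, so the count was not tested against chance. ENTPD3 was 13.5 CPM in the cyclic library of mare 3, against 22.4 to 24.0 CPM in the other cyclic libraries. ENPP1 was 160.3 CPM in the pregnant library of mare 1, against 101.5 to 103 CPM. SLC29A4 was 57.8 CPM in the same library, against 18.2 to 21.8 CPM in the other pregnant libraries. That library also had the lowest total of its group, 9.81 M counts against 16.4 to 16.7 M (1 M is 1000000 counts). ADCY4 was 4.10 CPM in the cyclic library of mare 3, against 3.47 to 3.54 CPM. GJA1 was 129.7 CPM in the pregnant library of mare 3, against 207 to 221 CPM. NT5C2 was 20.6 CPM in the cyclic library of mare 2, against 25.3 to 26.2 CPM. P2RY14 was 59.7 CPM in the pregnant library of mare 2, against 7.16 to 11.1 CPM.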

How the results depend on the processing

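The count of genes that changed was 2565 and became 389 without the mare as replicate block. It ran from 1266 to 2057 when a mare was left out, the lowest without mare 1. The count of genes differing between mares was 2435, with 1103 to 2049 when a mare was left out. For single genes other than NT5C1A, 252 of 288 values under an alternative kept their direction and their side of the threshold, 32 kept the direction and lost the call, 2 gained it (ENTPD3 without mare 3 and P2RY14 in limma-voom) and 2 turned. The log2 fold change of ADORA2A turned from 0.03 to -0.066 without mare 1 and -0.051 without mare 2, and lay between -0.066 and 0.19 over the mares left out, never past the threshold. NT5C1A, given with no test, stayed between -2.27 and -1.77. The calls of SLC29A1, AMPD3 and ADCY4 held in every alternative run. Leaving out the replicate block ended the calls of NT5E, ADA, ENPP1, SLC29A4, GNAI1, ADCY3, ADCY6, GJA1 and NT5C2 and no other among these genes, and the cause was not tested. Depth limits ADORA1 most (4 to 20 counts), then NT5C1A in pregnancy and ENTPD1.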

Other observations

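P2RY14, the receptor for UDP-sugars, was singled out after its values were seen. It had 6.95, 6.16, 2.98 and 6.51 CPM in mares 1 to 4 in the cycle and 7.16, 59.7, 10.5 and 11.1 CPM in pregnancy. Every pregnant value lay above every cyclic one, with mare 2 far above the rest. The log2 fold change was 1.54 ± 0.70 (SE; edgeR adjusted p = 0.257). It was 0.85 without mare 2, and of the alternatives run only limma-voom passed it (adjusted p = 0.0365; up to 0.471 over the alternatives).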
